A study of Mus musculus with 24 samples.

Results

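The genes described here work in the retinal pigment epithelium, the sheet of pigmented cells behind the photoreceptors, and in the making of melanin. They are the 10 rows of the normalized count table whose symbol is Rpe65, Lrat, Rdh5, Best1, Ttr, Tyr, Tyrp1, Dct, Pmel or Mlana, out of 28802 genes. Each has 1 row, and 8 of the 10 had a mean of at least 0.5 cpm, the unit of the normalized read counts, over all libraries and were tested. Best1 and Mlana were below that limit.

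Retinal RNA was sequenced from 24 wild-type mice at postnatal day 28, with 3 libraries from each of 8 inbred strains. The strains are those from which the Collaborative Cross panel of recombinant mice was founded: 129S1/Svlmj, C57BL/6J, NOD/ShiLtJ, A/J, NZO/HlLtJ and the wild-derived strains PWK/PhJ, WSB/EiJ and CAST/EiJ. A/J and NOD/ShiLtJ are taken here as the 2 albino strains and the other 6 as pigmented, from general knowledge of these strains, because the labels give strain and not coat colour. Libraries are named by strain and a replicate number that only follows their order of deposit. From the step that 1 read makes in the values, library totals were between 57607000 and 78150000 reads. A level of 3 reads, the limit of detection used here, equals 0.0384 to 0.0521 cpm. These limits cover counting error only.

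Photoreceptors detect light with a form of vitamin A that each photon changes, and the pigment epithelium turns it back: Lrat stores the retinoid as an ester, Rpe65 converts the ester to the 11-cis form, and Rdh5 oxidizes the product to the aldehyde that returns to the photoreceptors. Melanin is made in melanosomes, where Tyr catalyses the rate-limiting step, Tyrp1 and Dct act on later intermediates, and Pmel forms the fibrils on which the pigment is laid down. In the adult eye these melanin genes are active in the pigment epithelium, the iris and the ciliary body and in melanocytes of the choroid, none of which belongs to the neural retina. Albino inbred strains carry a coding change in Tyr that removes the activity of the enzyme, and A/J also carries the brown allele of Tyrp1.

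All 10 genes were low in these retinas. Sag, the arrestin of photoreceptors, had a mean of 1639 cpm, while the highest mean among the 10 genes was 10.9 cpm for Ttr. Per kilobase of exon, the mean level over the 24 libraries was 9.19 cpm per kb for Ttr, 1.40 for Tyrp1, 1.35 for Pmel, 1.35 for Rpe65 and 1.17 for Dct. It was 0.713 cpm per kb for Rdh5, 0.462 for Lrat, 0.203 for Mlana, 0.137 for Tyr and 0.0154 for Best1. On this scale Ttr stood above the other members, and Tyrp1, Pmel, Rpe65 and Dct lay close together. In whole tissue, fewer cells of a type and less RNA per cell cannot be told apart.

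Rpe65, the isomerase (chr3:159599175-159625321, plus strand, GRCm38), was at 1.66, 4.61 and 7.74 cpm in A/J, 5.82, 2.73 and 3.07 in WSB/EiJ, 3.71, 3.76 and 3.13 in 129S1/Svlmj and 2.85, 2.14 and 2.06 in NOD/ShiLtJ. It was at 2.46, 1.57 and 2.41 cpm in C57BL/6J, 1.30, 2.03 and 1.33 in NZO/HlLtJ, 1.55, 1.18 and 1.501 in CAST/EiJ and 1.30, 1.83 and 0.894 in PWK/PhJ. The A/J libraries held both the highest value of the series and one below the lowest value of 129S1/Svlmj, a span of 4.65-fold within 1 strain. In the order of strain means, from 4.67 ± 3.04 cpm (SD, n = 3) in A/J to 1.34 ± 0.467 in PWK/PhJ, the ranges of neighbouring strains overlapped in 6 of 7 pairs. The exception was 129S1/Svlmj, whose libraries all lay above those of NOD/ShiLtJ.

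Lrat (chr3:82892579-82903973, minus strand) followed the same libraries, with 1.43, 4.27 and 6.87 cpm in A/J, 5.71, 3.66 and 3.47 in WSB/EiJ and 0.932, 1.21 and 0.625 in PWK/PhJ, the strain with the lowest mean. Rdh5 (chr10:128913593-128922888, minus strand) was at 1.43, 2.55 and 3.52 cpm in A/J and 4.33, 2.94 and 3.43 in WSB/EiJ, and at 1.25, 1.06 and 1.17 in CAST/EiJ. For both genes the ranges of neighbouring strains overlapped in 7 of 7 pairs. The exons of Rdh5 share 25.6% of their bases with Bloc1s1 on the same strand, so its value may include reads of that gene. Best1, a chloride channel of the basal membrane of the pigment epithelium (chr19:9985174-10001633, minus strand), had at most 0.112 cpm, or 7 reads, and lay under the limit of 3 reads in 11 of 24 libraries. It was listed at 0.0001, the constant added to every value, in all 3 libraries of A/J and of WSB/EiJ, the strains in which Rpe65 had its highest means.

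Ttr encodes the carrier of thyroxine and of retinol-binding protein and is made in the pigment epithelium of the eye (chr18:20665280-20674321, plus strand). It was at 30.1, 20.2 and 20.5 cpm in WSB/EiJ, 16.2, 19.8 and 17.3 in 129S1/Svlmj, 4.15, 11.0 and 18.7 in A/J and 11.0, 10.02 and 10.9 in NOD/ShiLtJ. It was at 11.5, 6.30 and 12.8 cpm in C57BL/6J, 5.26, 3.86 and 4.74 in CAST/EiJ, 3.69, 6.09 and 3.83 in NZO/HlLtJ and 4.00, 6.62 and 2.80 in PWK/PhJ. All WSB/EiJ libraries lay above all 129S1/Svlmj libraries, and all C57BL/6J libraries above those of CAST/EiJ, while the other 5 neighbouring pairs overlapped. Replicates 1 and 3 of A/J again stood at opposite ends, 4.51-fold apart.

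Tyr, the tyrosinase whose coding sequence is altered in albino mice (chr7:87424771-87493512, minus strand), was no lower on average in the albino strains. It was at 1.88, 0.927 and 0.642 cpm in NOD/ShiLtJ and 1.23, 1.42 and 0.886 in A/J. Among pigmented strains it was at 1.67, 1.70 and 1.39 cpm in 129S1/Svlmj, 1.82, 1.00 and 1.39 in WSB/EiJ, 1.29, 0.729 and 1.33 in C57BL/6J, 0.835, 0.848 and 0.408 in NZO/HlLtJ, 0.329, 0.308 and 0.444 in CAST/EiJ and 0.199, 0.392 and 0.270 in PWK/PhJ. The 6 albino libraries, from 0.642 to 1.88 cpm with a median of 1.08, lay within the range of the 18 pigmented ones, 0.199 to 1.82 with a median of 0.841, except for NOD/ShiLtJ replicate 1. The lowest strain means were those of CAST/EiJ and PWK/PhJ, and neighbours in the order overlapped in 7 of 7 pairs.

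Dct, dopachrome tautomerase (chr14:118012790-118052244, minus strand), had the highest cpm of the melanin genes. It was at 17.3, 6.46 and 4.74 cpm in NOD/ShiLtJ and 10.6, 13.1 and 8.58 in A/J. It was at 14.0, 9.22 and 9.86 cpm in WSB/EiJ, 8.78, 10.9 and 8.54 in 129S1/Svlmj, 8.34, 3.83 and 7.25 in C57BL/6J, 3.01, 3.92 and 2.44 in PWK/PhJ, 3.38, 2.62 and 1.77 in NZO/HlLtJ and 2.33, 1.80 and 2.21 in CAST/EiJ. The albino libraries overlapped with those of WSB/EiJ, 129S1/Svlmj and C57BL/6J, and 8 of the 18 pigmented libraries were above the lowest albino one. The 3 libraries of 129S1/Svlmj were all above those of C57BL/6J, and the other 6 neighbouring pairs overlapped.

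Tyrp1 (chr4:80834123-80851719, plus strand) was at 7.99, 10.9 and 5.98 cpm in A/J and 9.96, 3.64 and 2.55 in NOD/ShiLtJ, against 1.25 to 5.54 cpm with a median of 2.78 in the 18 pigmented libraries. All 3 A/J libraries were above every pigmented library, and only 1 of the 3 NOD/ShiLtJ libraries was. Pmel (chr10:128704195-128720238, plus strand) was at 6.20, 6.72 and 2.15 cpm in A/J and 12.1, 3.99 and 2.73 in NOD/ShiLtJ, against 0.398 to 5.02 with a median of 2.04 in the pigmented libraries. Pmel had the widest range of strain means among the tested members, 14.1-fold, with 0.869 ± 0.101 cpm in PWK/PhJ and 0.445 ± 0.0477 in CAST/EiJ apart from the other strains and from each other. Its exons share 4.58% of their bases with Dgka and 1.48% with Cdk2, both on the opposite strand. Mlana, a melanosome protein also called Mart-1 (chr19:29697824-29708634, plus strand), ranged from 0.0419 to 0.735 cpm, or 3 to 56 reads, with the highest value again in NOD/ShiLtJ replicate 1.

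**Figure D1:**
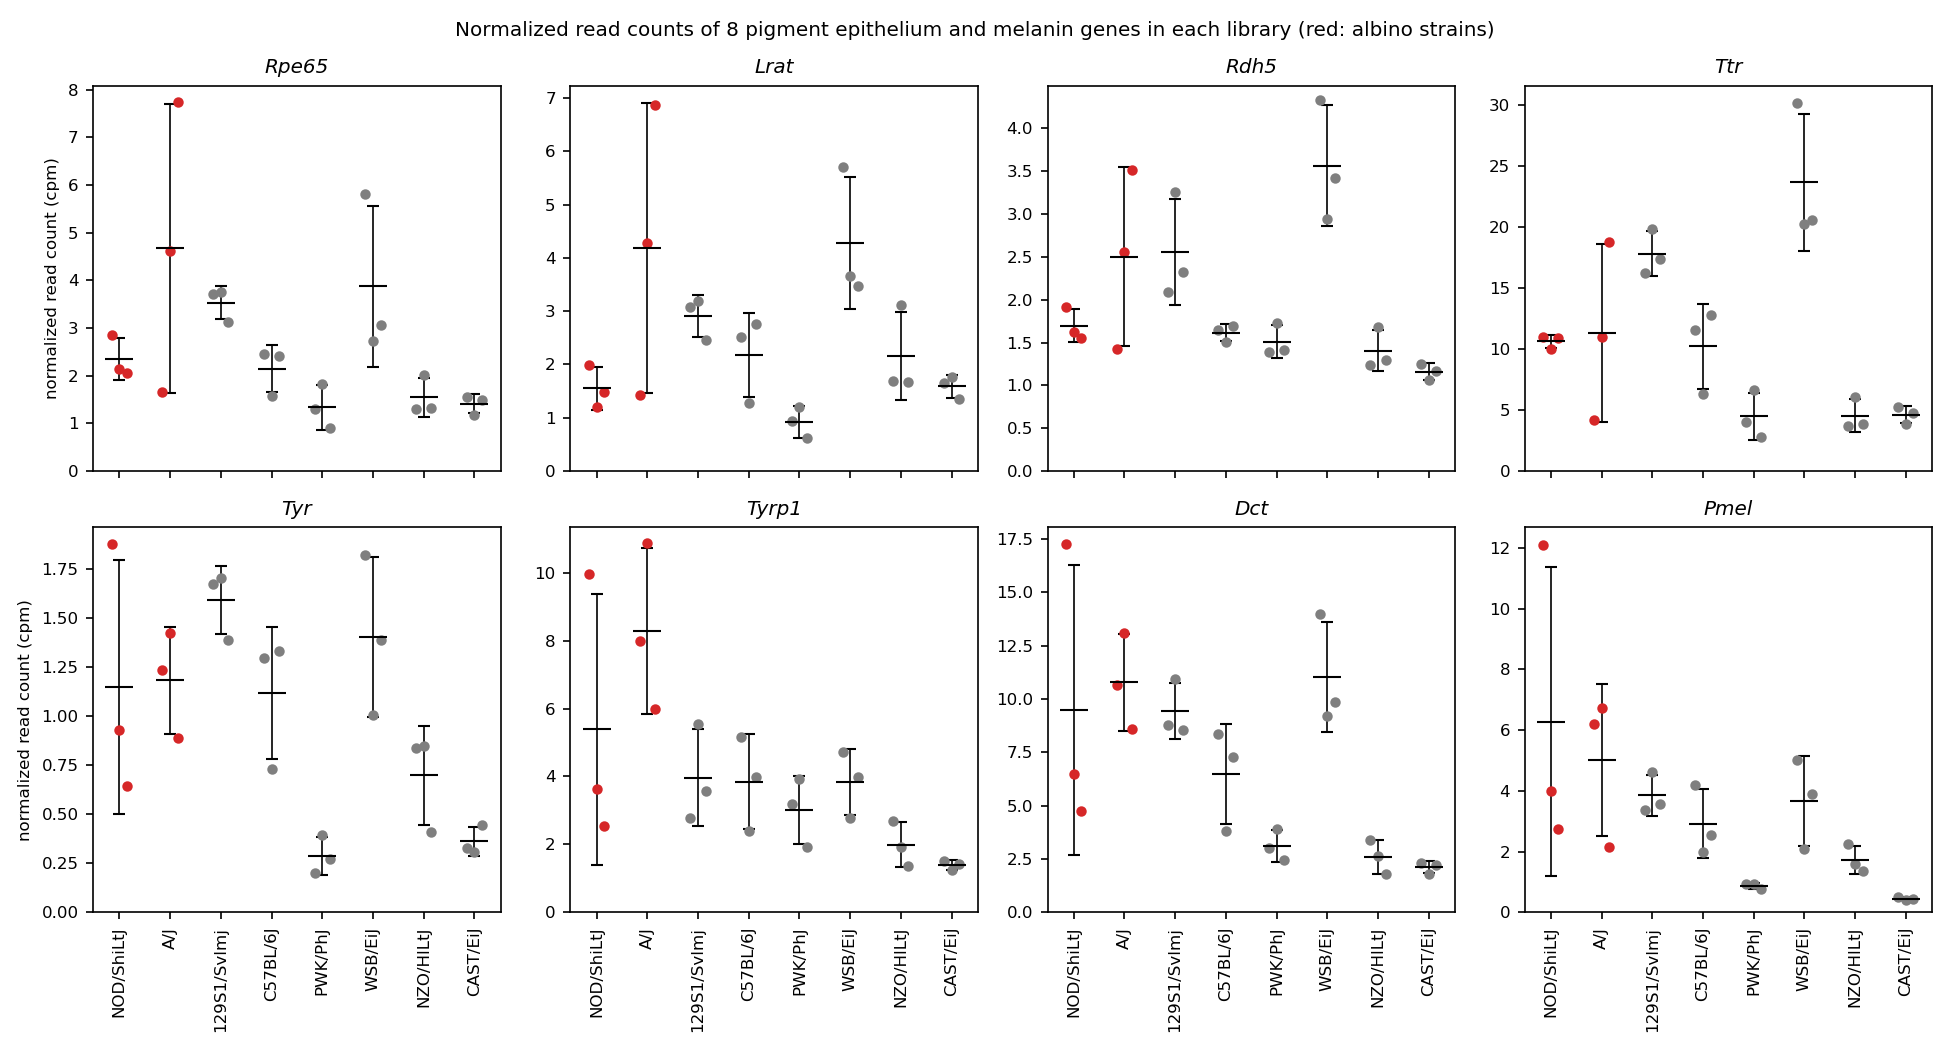
Normalized read counts in cpm of the 8 tested genes in each library, by strain. Points are single libraries (red for A/J and NOD/ShiLtJ, grey for pigmented strains), horizontal bars are means and whiskers are SD over 3 libraries. NOD/ShiLtJ replicate 1 is the highest point for Dct (17.3 cpm) and Pmel (12.1 cpm), and A/J replicate 3 for Rpe65 (7.74 cpm).

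To ask whether strains differed, log2(cpm + 1) was compared over the 8 strains with limma's moderated F-test, and a gene was called at a Storey q-value under 0.01. All 8 tested members were called (largest q = 3.27e-05, for Rpe65, by limma), where 97.2% of all 16400 genes tested were, so the count says little about these genes in particular. The unadjusted p of Rpe65 by limma's F-test was 0.000919, above its q-value. Storey's q-value can fall below p when most genes differ. Strain accounted for 64.4% (Rpe65) to 82.8% (Dct) of the variance of log2(cpm + 1), with a median of 77.1% over the 8 members and 75.5% over all genes tested. This share is not adjusted for fitting 8 strain means to 24 libraries, which raises it. Whether the 3 libraries of a strain came from separate mice is taken from the study's design, and p-values measure the spread between these libraries.

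The albino strains were then compared with the pigmented ones in the same limma fit, as the mean of the 2 albino strain means minus the mean of the 6 pigmented strain means of log2(cpm + 1). This scale understates differences of low genes. Of the 8 members, 3 were called higher in the albino strains and 0 lower, where 21.9% of all genes tested were called higher and 13.9% lower. By limma the difference was 1.03 ± 0.199 (SE) for Pmel (q = 9.04e-05), 0.92 ± 0.180 for Tyrp1 (q = 0.000104) and 0.83 ± 0.171 for Dct (q = 0.000169). Tyr differed by 0.22 ± 0.0938 (q = 0.0252) and Rpe65 by 0.40 ± 0.159 (q = 0.0181), which missed the limit, as did Ttr (0.22, q = 0.134), Lrat (0.13, q = 0.195) and Rdh5 (0.08, q = 0.170). The 3 called members were melanin genes. The median difference was 0.31 over the 8 members and 0.03 over all genes tested. After median-ratio scaling of the libraries, calls over all genes were divided into 2893 higher and 2903 lower, in place of 3590 and 2286. The same number of members, 3, was called higher. With a pseudocount of 0.1 in place of 1, 3 members were again called higher. Tyr then differed by 0.49 (limma q = 0.0101) and Rdh5 by 0.13 (q = 0.140), and neither was called.

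These p-values set the difference against the spread between libraries of a strain, while the allele differs between strains. With the 8 strain means as units, an exact permutation test over all 28 assignments, whose two-sided p adds the smaller one-sided p to itself, cannot give a p below 0.0714. That smallest value was reached by Tyrp1, Pmel and Mlana (exact p = 0.0714 each), for which A/J and NOD/ShiLtJ had the highest strain means of the 8. The share of all genes that reach this value was not counted, so the number of members says little by itself. The exact p was 0.357 for Dct, for which WSB/EiJ had the highest mean, 0.286 for Rpe65 and 0.643 for Tyr. Without A/J, NOD/ShiLtJ alone differed from the pigmented strains by 0.57 for Tyrp1 (limma q = 0.0301) and 0.66 for Dct (q = 0.0141), and only Pmel was still called. Against the 3 pigmented classical strains only, the difference for Pmel was 0.69 (limma q = 0.01996) and missed the limit, while Tyrp1 and Dct were still called higher.

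Libraries of a strain differed far more in these genes than in most others. The pooled SD of log2(cpm + 1) within strains was 0.491 for Pmel, 0.465 for Ttr, 0.444 for Tyrp1, 0.420 for Dct, 0.398 for Lrat, 0.391 for Rpe65, 0.225 for Tyr and 0.212 for Rdh5. Its median was 0.409 over the 8 members and 0.0939 over all genes tested, and each member was at or above the 97.4 percentile. Counting error made up 1.40% (Ttr) to 15.1% (Rdh5) of this variance.

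The deviations of the 24 libraries from their strain means fell into blocks that followed the roles of the genes. Among Rpe65, Lrat, Rdh5 and Ttr, Pearson's r of these deviations was 0.85 to 0.94 over 6 pairs (Spearman's coefficient 0.71 to 0.93), and among Tyr, Tyrp1, Dct and Pmel it was 0.86 to 0.95 over 6 pairs (Spearman 0.76 to 0.92). In the 16 pairs between the blocks r was -0.11 to 0.33 with a median of 0.27 (Spearman 0.15 to 0.56, median 0.46). The values are a description over 24 libraries, whose genes share the same RNA and depth. The highest library of each strain separated the blocks less. The library with the most Rpe65 also had the most Ttr in 7 of 8 strains, Rdh5 in 7, Lrat in 6, Tyrp1 in 6, Dct in 6, Tyr in 5 and Pmel in 5. The library with the most Dct had the most Tyrp1 in 8 of 8 strains, Pmel in 7, Rpe65 in 6, Tyr in 5, Rdh5 in 5, Ttr in 5 and Lrat in 4.

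The weak relation between the blocks rested on few albino libraries. When the 2 libraries farthest from the median of the first gene of each pair were left out, the median r between blocks was 0.57 (0.33 to 0.72), and within blocks it was 0.80 for the visual cycle genes with Ttr and 0.78 for the melanin genes. Among the A/J libraries, replicate 3 was highest for Rpe65 (7.74 cpm) and lowest for Pmel (2.15 cpm), and replicate 1 was lowest for Rpe65 (1.66 cpm) with 6.20 cpm of Pmel. In NOD/ShiLtJ, replicate 1 had 17.3 cpm of Dct against 6.46 and 4.74 in the other libraries, while Ttr was level at 10.02 to 11.0 cpm. Rpe65, Lrat and Rdh5 were also highest in that replicate, by less, at 2.85, 1.98 and 1.92 cpm. The next highest values of the strain were 2.14, 1.48 and 1.63 cpm. Across the 8 strain means the blocks moved together more closely, with a median r of 0.78 between blocks (0.49 to 0.94, 16 pairs).

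**Figure D2:**
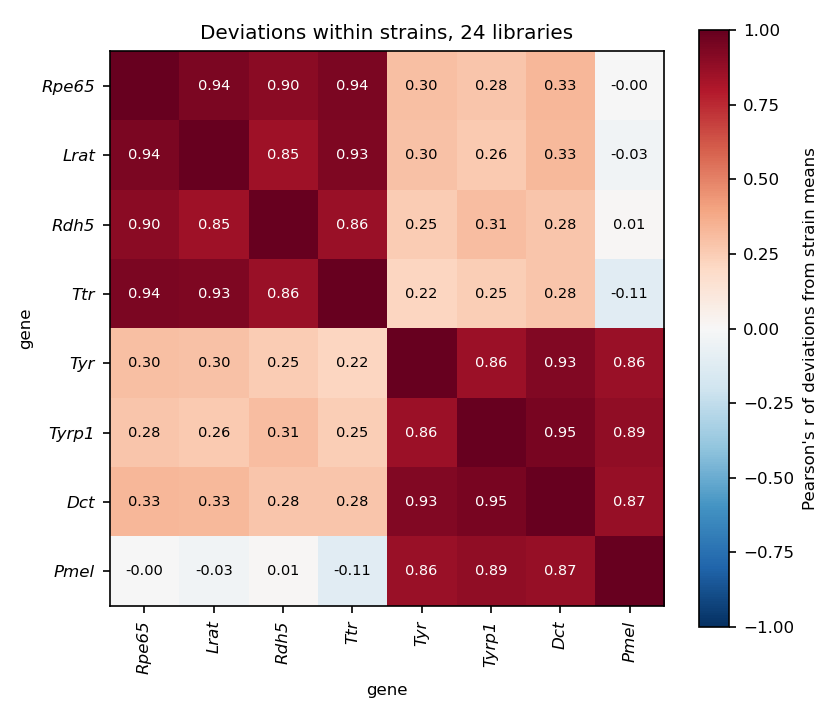
Pearson's r between genes, over 24 libraries, of the deviation of log2(cpm + 1) from the strain mean, on a colour scale from -1 to 1. Rpe65, Lrat, Rdh5 and Ttr form one block (0.85 to 0.94) and Tyr, Tyrp1, Dct and Pmel another (0.86 to 0.95), with -0.11 to 0.33 between them.

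The sum of the 5 melanin genes divided by the sum of Rpe65, Lrat, Rdh5 and Best1, both in cpm, describes the same imbalance. It was 5.84, 2.85 and 0.986 in A/J and 6.15, 3.07 and 2.11 in NOD/ShiLtJ. The pigmented strains were narrower, with 1.05 ± 0.0990 (SD, n = 3) in CAST/EiJ, 1.44 ± 0.624 in NZO/HlLtJ, 1.73 ± 0.176 in WSB/EiJ, 1.94 ± 0.0911 in PWK/PhJ, 2.09 ± 0.188 in 129S1/Svlmj and 2.39 ± 0.456 in C57BL/6J. The albino means were 3.23 ± 2.45 in A/J and 3.77 ± 2.11 in NOD/ShiLtJ, and each of these strains had at least 1 library within the range of the pigmented ones. CAST/EiJ was low in both groups of genes and lowest in the ratio.

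Among all genes tested, the 10 whose deviations were most like those of Rpe65 were Rgr (r = 0.96 over 24 libraries), Car12 (0.95), Lrat (0.94), Flvcr2 (0.94), Ttr (0.94), Slc6a20a (0.91), Fap (0.91), Clic6 (0.91), Rdh5 (0.90) and Pon1 (0.90). Rgr encodes an opsin of the pigment epithelium and Müller cells, and was at 7.65, 20.9 and 38.4 cpm in A/J, in the same order of libraries as Rpe65. The 10 most like Dct were Tyrp1 (0.95), Tyr (0.93), Gpnmb (0.90), Pmel (0.87), Dcn (0.84), Slc24a5 (0.83), Tagln (0.83), Rbm25 (0.82), 4930447C04Rik (0.80) and Ppp4r3b (0.79). The median r over all genes tested was 0.05 with Rpe65 and 0.05 with Dct. Gpnmb and Slc24a5 encode melanosome proteins, whereas Dcn encodes a proteoglycan of fibroblast matrix and Tagln a protein of smooth muscle. Among the genes most like Rpe65, none was a melanin gene, and Fap encodes the fibroblast activation protein.

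Some markers of tissue outside the retina moved with the melanin genes, and others did not. For the list counts that follow, the shares over all genes tested were 21.9% called higher and 13.9% called lower. Of 5 tested fibroblast genes of the choroid and sclera (Col1a1, Col1a2, Col3a1, Dcn and Fmod, with Lum below the limit), 5 were higher in the albino strains by limma, with a median difference of 0.74. Of 3 tested genes of vessels and muscle, Acta2 (0.58, limma q = 8.97e-05) and Myh11 (0.70, q = 0.000622) were higher and Plvap was not called (-0.12, q = 0.0130), with Des below the limit. Called counts after median-ratio scaling were 5 higher for the fibroblast list, and 2 higher and 1 lower for the vessel and muscle list. The most abundant genes of these lists were Col1a2, with a mean of 2.69 cpm, and Myh11, with 2.06 cpm, and no gene of either list was under 3 reads in all 24 libraries. Acta2 and Myh11 are also expressed by the mural cells of retinal vessels.

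The summed level of the 10 genes of both lists was 20.2, 28.8 and 16.2 cpm in A/J and 24.7, 15.9 and 13.8 in NOD/ShiLtJ. In pigmented strains it was 15.6, 12.0 and 13.9 cpm in C57BL/6J, 7.80, 15.1 and 9.98 in 129S1/Svlmj, 9.94, 7.66 and 8.89 in WSB/EiJ, 9.59, 8.12 and 10.2 in NZO/HlLtJ, 6.57, 9.35 and 8.19 in PWK/PhJ and 5.18, 5.07 and 5.61 in CAST/EiJ. The 3 highest marker sums were those of NOD/ShiLtJ replicate 1 and A/J replicates 1 and 2, which also had the 3 highest sums of melanin genes, 42.0, 26.4 and 32.6 cpm. The single genes differed. Myh11 was at 5.89 cpm in NOD/ShiLtJ replicate 1 and at 5.48 and 5.26 cpm in A/J replicates 1 and 2, its highest values, whereas Fmod was lowest of its strain in NOD/ShiLtJ replicate 1 (1.21 cpm, against 2.35 and 2.41) and in A/J replicate 1 (1.45 cpm, against 4.10 and 4.19). Acta2 was at 1.96, 2.71 and 1.12 cpm in NOD/ShiLtJ, highest in replicate 2. Within strains, r of the single genes with Dct over 24 libraries was 0.84 for Dcn, 0.72 for Myh11, 0.68 for Col1a1, 0.41 for Acta2, 0.40 for Col3a1, 0.33 for Col1a2, -0.11 for Fmod and -0.17 for Plvap. With Rpe65 it was 0.58 for Col1a1 and 0.34 for Col1a2, and between -0.29 (Myh11) and 0.25 (Fmod) for the others. For the marker sum, r between its deviation within strains and that of a melanin gene was 0.65 for Tyr, 0.71 for Dct, 0.76 for Pmel and 0.80 for Tyrp1 over 24 libraries (Spearman 0.64, 0.68, 0.71 and 0.76), and 0.58, 0.63, 0.72 and 0.71 without the 2 libraries farthest from the median. For Rpe65, Lrat, Rdh5 and Ttr, r was 0.12, 0.08, 0.30 and 0.10 (Spearman 0.29, 0.18, 0.47 and 0.24).

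The albino difference of the melanin genes changed when these transcripts entered the fit. With the mean log2 level of the tested fibroblast, vessel and muscle genes as a covariate, chosen after the data were seen, the difference turned to -0.28 for Tyrp1 (limma q = 0.354), -0.19 for Dct (q = 0.486) and -0.26 for Pmel (q = 0.411). By limma 0 of 8 members were then called, with 0 at an unadjusted p under 0.05, where calls over all 16400 genes fell from 5876 to 1227. The marker sums nearly split by coat, with 13.8 to 28.8 cpm in albino and 5.07 to 15.6 cpm in pigmented libraries. Coat and these transcripts are therefore hard to separate in this fit. With the visual cycle genes as the covariate in place of the marker genes, 4 members and 5386 of all genes were called, Rpe65 among them (0.28, limma q = 7.68e-05). The part of choroid or other tissue left on the retina in the albino difference was not tested.

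**Figure D3:**
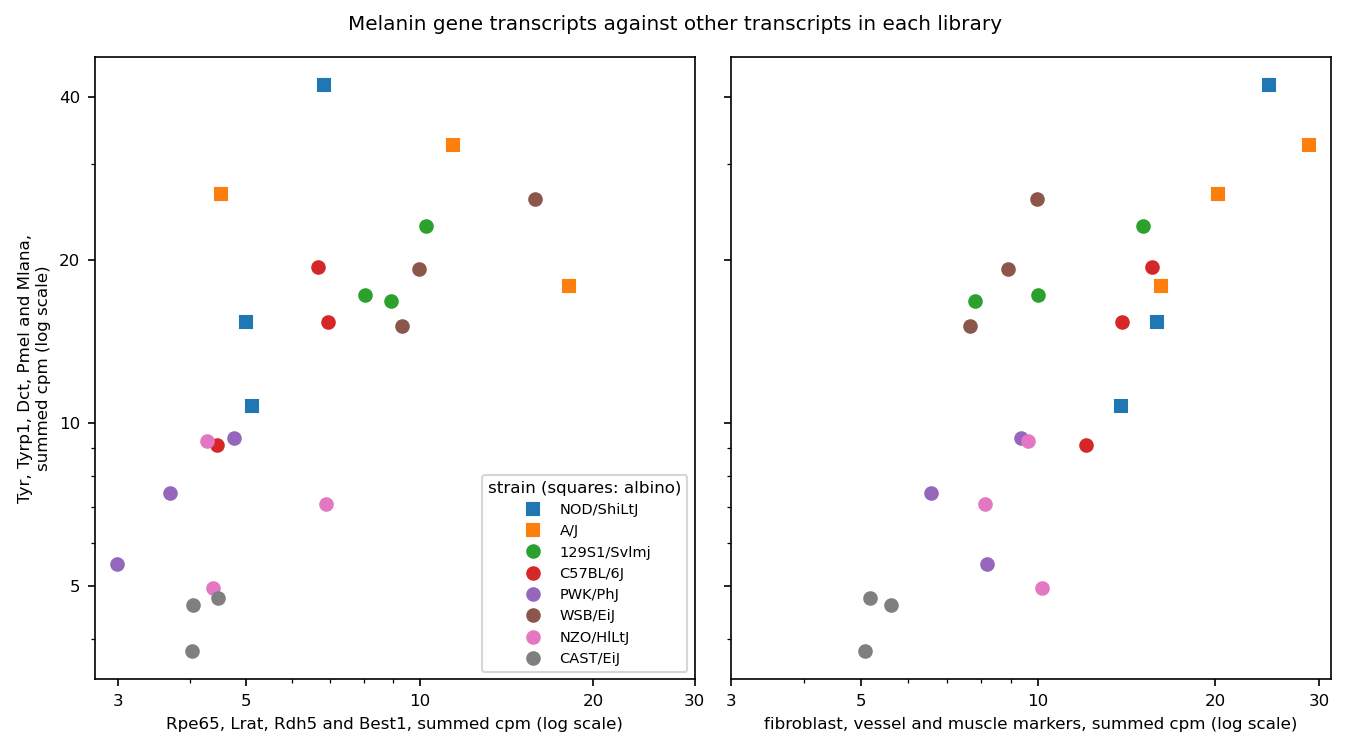
Summed cpm of the 5 melanin genes in each library (vertical, log scale) against the summed cpm of Rpe65, Lrat, Rdh5 and Best1 (left, log scale) and of the 10 fibroblast, vessel and muscle markers (right, log scale), with squares for albino strains. NOD/ShiLtJ replicate 1 and A/J replicates 1 and 2 have the 3 highest melanin sums (42.0, 26.4 and 32.6 cpm) and the 3 highest marker sums (24.7, 20.2 and 28.8 cpm).

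Lens transcripts followed other libraries. The sum of 12 lens genes, led by Cryaa with a mean of 74.3 cpm, ranged from 10.1 to 2187 cpm with a median of 27.7. Cryaa was at 755 cpm in NOD/ShiLtJ replicate 2, 725 cpm in 129S1/Svlmj replicate 2 and 90.9 cpm in C57BL/6J replicate 2, and at 5.88 cpm in NOD/ShiLtJ replicate 1. Of 11 tested lens genes, 0 were called in the albino comparison by limma, with 0 at an unadjusted p under 0.05, and their median r with Dct within strains was -0.21. The SE of the lens differences was 0.27 (Bfsp2) to 0.86 (Cryaa), against 0.199 for Pmel. Large differences of most lens genes could thus be missed. Without the 3 libraries richest in Cryaa the same number of members, 3, was called. Krt12, a keratin of the corneal epithelium that is in none of the lists and was singled out after its values were seen, was at 4.77, 0.296 and 0.0977 cpm in NOD/ShiLtJ and 0.537, 1.00 and 0.997 in A/J. Its highest value was thus in the library with the most melanin transcripts, and among pigmented libraries it reached 1.52 cpm, in NZO/HlLtJ replicate 1. It was not called in the albino comparison (0.52, limma q = 0.0232). The 5 genes of ciliary body and iris all had means below 0.5 cpm. Their sums were highest in the same 3 libraries as those of the melanin genes, with 1.17 cpm in A/J replicate 2, 0.970 in A/J replicate 1 and 0.933 in NOD/ShiLtJ replicate 1, and the mean sum was 0.889 cpm in albino and 0.607 in pigmented libraries. The most abundant of them was Foxc1, with a mean of 0.444 cpm. Their part in the melanin transcripts was not tested.

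Other genes of the same pathways gave a mixed picture, where 21.9% of all genes tested were called higher and 13.9% lower. Of 8 tested further visual cycle genes of the pigment epithelium, Rdh11 was higher in the albino strains (0.16, limma q = 0.000932) and 7 were not called, among them Rgr (0.07, q = 0.287) and Rlbp1 (0.12, q = 0.0122). Of 5 tested visual cycle genes of photoreceptors, Rdh8 and Rdh12 were higher. Of 12 tested further genes of the pigment epithelium, 5 were higher and 0 lower, and after median-ratio scaling 4 and 1. The largest differences of the list were those of Clic6 (0.47, limma q = 0.000113) and Kcnj13, a potassium channel (0.46, q = 0.000435), while Mertk, the receptor with which the pigment epithelium takes up outer segments, was on the lower side (-0.14, q = 0.0166) and was the gene called lower after that scaling. Several genes of these lists are also expressed by retinal cells: Rlbp1, which Müller cells make, had a mean of 82.7 cpm.

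Of 13 tested further melanosome genes, 7 were higher in the albino strains and 1 lower, and after median-ratio scaling 6 and 2. Over all genes tested, 21.9% were called higher and 13.9% lower in the main fit. Slc7a11, the cystine transporter that sets the balance of black and yellow pigment, was higher (1.14, limma q = 2.39e-07), with Gpnmb (0.51, q = 0.000805) and Slc24a5 (0.26, q = 0.00298). The strain means of Slc24a5 did not split by coat, with 0.865 cpm in WSB/EiJ, above NOD/ShiLtJ (0.731) and A/J (0.697). Those of Gpnmb were highest in A/J (3.82 cpm) and NOD/ShiLtJ (3.46), but PWK/PhJ (3.41) and C57BL/6J (3.32) were close. Its single libraries overlapped, from 2.08 cpm in NOD/ShiLtJ replicate 3 to 4.30 in PWK/PhJ replicate 2. Trpm1, which had the highest mean of that list at 189 cpm, is also the transduction channel of ON bipolar cells. The lower gene was Myo7a, the myosin that moves melanosomes in the pigment epithelium, and its pattern was one of 2 pigmented strains. It was at 34.5, 31.4 and 31.1 cpm in PWK/PhJ and 12.6, 16.3 and 12.4 in C57BL/6J, and at or below 0.842 cpm in every library of the other 6 strains, albino and pigmented alike. Of 6 tested pigment cell regulators, 5 were called higher: Mitf, Otx2, Sox9, Mc1r and Ednrb. After median-ratio scaling 3 were, Sox9, Mc1r and Ednrb. Within strains, r with Dct was 0.57 for Mitf, 0.30 for Otx2, 0.26 for Mc1r, 0.21 for Ednrb, -0.22 for Kit and -0.55 for Sox9. Otx2 had the highest mean of the list, 63.9 cpm. The cell types behind this count were not tested. Mitf, a master regulator of melanin genes, was near the limit (0.14, limma q = 0.00821) and was not called after median-ratio scaling (0.12, q = 0.0227), nor was Otx2. The melanocortin receptor Mc1r was called under both scalings (0.90, limma q = 2.75e-13 in the main fit), but its levels did not split by coat. Its strain means were 4.21 cpm in NOD/ShiLtJ and 3.46 in A/J, against 3.50 in NZO/HlLtJ, 3.15 in WSB/EiJ, 2.82 in 129S1/Svlmj, 1.29 in C57BL/6J, 0.487 in CAST/EiJ and 0.247 in PWK/PhJ. Sox10 and Pax3, regulators of melanocytes, reached at most 0.265 and 0.0657 cpm in any library.

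Of the 4 tested blood genes, 3 were higher and 1 lower in the albino strains, with Hbb-bs the most abundant at a mean of 9.90 cpm. Of 11 tested genes of retinal neurons and glia, 5 were higher and 3 lower. Both counts stand beside 21.9% higher and 13.9% lower over all genes tested. The genes with the largest positive moderated t in the albino comparison were Gm13394, BC023719 and A930031H19Rik, and those with the largest negative t were Gm13340, Gm13341 and 6820402A03Rik. Levels of gene models that can share reads with near-identical copies are uncertain. The member with the largest t, Pmel, ranked 1408 from the top.

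Promoter windows were read for the members because their transcripts moved together. The windows ran from 250 bases before to 50 bases after the RefSeq start (GRCm38.p6). The set of windows used here covered 7 of the 10 members and held none for Ttr, Pmel and Mlana. The letters CATGTG, the core of the M-box that Mitf is known to bind, were sought on both strands and occur in 14.2% of the 32851 windows. Tyr, Tyrp1 and Dct held them, as did Rpe65, while Lrat, Rdh5 and Best1 did not. The related letters CACGTG, in 7.15% of all windows, were in none of the 7, and CANNTG, which covers both, was in all 7 and in 72.3% of all windows. The stretches around the match on the gene's own strand are shown for the 3 melanin genes, with the 6 matching letters in capitals.
Tyr, chr7:87493498-87493563, minus strand: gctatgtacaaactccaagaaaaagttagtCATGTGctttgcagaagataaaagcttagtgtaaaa
Tyrp1, chr4:80834137-80834202, plus strand: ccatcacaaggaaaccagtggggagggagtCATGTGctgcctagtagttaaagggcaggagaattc
Dct, chr14:118052361-118052426, minus strand: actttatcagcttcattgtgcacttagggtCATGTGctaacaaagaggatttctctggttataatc

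The match began 21 bases before the RefSeq start in Tyr, 46 in Tyrp1 and 150 in Dct. The RefSeq start of Tyrp1 is base 80834213, downstream of the GENCODE start given above (80834123), so that the same match lies within the gene as GENCODE has it. The same letters on the opposite strand lay 232 bases before the RefSeq start in Dct and 239 in Rpe65. The longer run TCATGTGCT, chosen after these windows were seen, was in all 3 of the melanin promoters shown and in 134 of 32851 windows (0.408%), and in none of Rpe65, Lrat, Rdh5 and Best1. A match describes the sequence only. These windows come from the reference genome, and the strains' own sequences were not analysed here.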

How the data were processed

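Retinal total RNA of 24 libraries was measured after removal of ribosomal RNA. Per the submitters' notes and the study's methods, the authors used STAR for alignment to GRCm38 (mm10) and Partek, with an expectation-maximization model, to assign reads to genes. The deposited values are cpm, each count divided by the library's total reads, with 0.0001 added by the authors. Of the low values, 87.2% to 89.4% per library were whole reads within 0.02 of a read, so no count test was used. All columns of per-sample values were used. Over 24 pairs of libraries of a strain, the mean squared difference was 1.99 to 22.3 times the counting variance, and no pair was treated as a duplicate.

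Tests used log2(cpm + 1) of the 16400 genes whose mean reached 0.5 cpm. The models were fitted in R 4.3.3 with lmFit and trended eBayes of limma 3.58.1, two-sided, with Storey's q-value limited to 0.01. Exact permutation tests used scipy 1.17.1 in Python 3.11.15, and figures matplotlib 3.10.9. The fit was tested on simulated data. Exon lengths, overlaps and gene positions came from GENCODE M21, and promoter windows from RefSeq. Protein sequences were not analysed here.

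Named genes are the 10 members, genes of 11 marker lists, the 10 genes most correlated with Rpe65 and with Dct (the melanin gene with the highest mean cpm) in deviations from strain means, and the 3 genes at each end of the order by moderated t. The members and lists were chosen with earlier results of these data known. Examples from the lists, single libraries, Myo7a and Krt12 were named after their values were seen.

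Alternatives were a pseudocount of 0.1, no filter or a stricter one at 5 cpm, median-ratio and quantile scaling, the Benjamini-Hochberg adjusted p-value, a limit of 0.05, no trend, leaving out each library and each strain, classical strains only, and the mean of Rpe65, Lrat, Rdh5 and Best1 as a covariate, without the member under test. A covariate from the fibroblast, vessel and muscle genes, both covariates together, and leaving out the 3 libraries richest in Myh11 or in Cryaa were added after the data were seen.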

Additional observations from a re-analysis of the deposited data

How the results depend on the processing

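The strain comparison was not repeated without a strain, in classical strains only or with a covariate. In 33 of its 34 alternatives 8 of 8 members were called, and a mean of at least 5 cpm leaves fewer genes (9218 called, 2 of 2 members). Leaving out 1 library gave 15547 to 16373 called genes. In the albino comparison, the counts of all genes and of members called were 3483 and 1 with a mean of at least 5 cpm. The member count was 5 of 8 at the limit of 0.05, where 8520 of 16400 genes were called, and 5 without 129S1/Svlmj (6142 genes), 5 without WSB/EiJ (6266) and 1 without A/J (4219). Leaving out 1 library gave 4777 to 6079 genes and 3 to 5 members. The count of 5 came without A/J replicate 1, which added Rpe65 (0.63) and Ttr (0.48). The differences of Tyrp1, Dct and Pmel stayed called without any 1 library, at 0.68 to 1.08, 0.58 to 1.00 and 0.76 to 1.23. That of Tyr ranged from 0.10 without NOD/ShiLtJ replicate 1 to 0.30, when it was called, without NOD/ShiLtJ replicate 3. Those of Lrat and Rdh5 ranged from -0.06 and -0.02 without A/J replicate 3 to 0.36 and 0.20 without A/J replicate 1.

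With the fibroblast, vessel and muscle covariate, 1227 genes and 0 members were called. The estimates for Tyrp1, Dct and Pmel changed sign, to -0.28, -0.19 and -0.26, with no call in either direction. With both covariates 1238 genes and 0 members were called by limma, with 1 member at an unadjusted p under 0.05, and the values were -0.29, -0.20 and -0.26. Without the 3 libraries richest in Myh11, 3085 genes and 2 members were called, Rpe65 and Ttr, with 7 of 8 members at an unadjusted p under 0.05. These libraries are all albino and have the 3 highest sums of melanin genes, so smaller differences of Tyrp1, Dct and Pmel (0.49, 0.44 and 0.34) follow from leaving them out, and A/J is left as replicate 3 alone. The cause of the changes with the covariates was not tested.

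The median r within strains, without 1 library, was 0.83 to 0.94 among visual cycle genes with Ttr, 0.78 to 0.91 among melanin genes and 0.18 to 0.52 between the groups, the last without A/J replicate 3. Without the 3 libraries richest in Myh11 these medians were 0.80, 0.82 and 0.62. Without Dct the ratio of melanin to visual cycle genes was 1.05 in 129S1/Svlmj, 1.34 in C57BL/6J, 1.12 in PWK/PhJ, 0.775 in WSB/EiJ, 0.545 in CAST/EiJ and 0.916 in NZO/HlLtJ, and 1.90 in A/J and 2.19 in NOD/ShiLtJ. No paired analysis was possible because replicate numbers only follow the order of deposit. Best1 and Mlana, with at most 7 and 56 reads, are limited by depth.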
